A study of Mus musculus with 9 samples.

Results

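The 10 genes described here encode the core of the circadian clock and its nearest outputs, measured in mouse kidney. They were chosen by name, as Arntl (also called Bmal1), Clock, Npas2, Per1, Per2, Per3, Nr1d1, Nr1d2, Dbp and Ciart, out of 54532 genes in the count files. All 10 were found through their Ensembl identifiers, and all 10 were among the 16646 genes with enough reads to be tested. The question was at which levels these genes stood in each library, and whether libraries or groups differed in the way that kidneys taken at different phases of the daily cycle do.

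RNA was measured in kidneys of C57BL/6J mice in 3 groups with 3 libraries each. WT mice were wild type and are not described as treated. The other groups were both Trex1-/- mice, which lack the exonuclease TREX1 that removes DNA from the cytosol, and which the study used as a lupus-like model driven by the DNA sensing pathway of cGAS and STING. Trex1-/- mice received either PBS or SN-011, an antagonist of STING, for 2 weeks. By the study's methods, the injections were intraperitoneal and daily, began at about a month of age, and the PBS carried Tween 80 as the vehicle. These mice came from crosses of Trex1+/- parents, whereas the study's methods describe WT mice as bought from a breeding centre at several weeks of age. Origin and genotype cannot be told apart between WT and the Trex1-/- groups. Neither the sex of the mice nor the hour at which kidneys were taken is given in the sources used here, so that a difference between groups and a difference in collection time cannot be told apart. The labels number the samples without saying more of how they were raised, so that p-values measure the spread between these libraries.

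The mammalian clock is a loop of transcription factors. BMAL1 (from Arntl) pairs with CLOCK or its relative NPAS2 and binds E-boxes to activate the Per and Cry genes, Nr1d1, Nr1d2, Dbp and Ciart. PER and CRY proteins and CHRONO (from Ciart) then inhibit that pair, while REV-ERB alpha and beta (from Nr1d1 and Nr1d2) repress Arntl, Npas2 and Clock through ROR elements. DBP carries the rhythm to output genes by binding D-boxes. In mouse kidney, as in liver, Arntl and Npas2 mRNA peak around dawn, Nr1d1 peaks in the light phase, and Dbp, Per3, Per1 and Per2 follow towards dusk, so that the activators and their targets lie nearly opposite in phase.

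Promoter sequences were available for 9 of the 10 genes, with 13 promoters in all (RefSeq, GRCm38.p6, from 250 bases before to 50 bases after each transcription start), and Per2 had no entry. The stretches below are shown because they hold the matches found to the E-box CACGTG, the E-prime box CACGTT, the D-box (TTATGTAA or TTACGTAA) and the ROR element core (TAGGTCA or TGGGTCA), searched on both strands. Capitals mark the matches, each sequence runs 5′ to 3′ on the strand of its gene, and no matches overlapped.
Ciart (chr3:95882259-95882357, minus strand): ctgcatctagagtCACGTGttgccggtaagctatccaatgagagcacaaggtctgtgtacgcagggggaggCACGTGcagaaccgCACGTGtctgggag
Per1 (chr11:69098759-69098818, plus strand): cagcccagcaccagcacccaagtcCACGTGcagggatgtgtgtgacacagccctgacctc
Per3 (chr4:151044801-151044890, minus strand): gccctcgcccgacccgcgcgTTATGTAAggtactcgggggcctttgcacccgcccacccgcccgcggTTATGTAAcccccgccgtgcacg
Nr1d1 (chr11:98775378-98775447, minus strand): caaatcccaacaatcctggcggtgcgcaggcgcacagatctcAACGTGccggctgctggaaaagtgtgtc
Arntl (chr7:113207529-113207558, plus strand): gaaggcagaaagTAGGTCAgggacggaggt

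The Ciart promoter held 3 E-boxes, which lie 116, 58 and 44 bases before the start. Per1 held 1 E-box at 166 bases before it, and Nr1d1 held 1 E-prime box, read as AACGTG, at 28 bases before it. Per3 held D-boxes at 205 and 158 bases before the start, and the second Arntl promoter held 1 ROR core at 31 bases after it. No match was found in these windows for Clock, Npas2, Nr1d2 and Dbp, and none of the 9 genes held the cAMP response element TGACGTCA. Among 32851 promoters of the same length, 7.15% held an E-box, 4.68% an E-prime box, 1.06% a D-box, 6.45% a ROR core and 1.79% a cAMP response element. The promoters of 1 chromosome, which holds none of these clock genes, were left out of those shares. These matches are a description of letters and not of bound sites.

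Levels are given in CPM, the counts of a gene as a share of its library scaled by TMM factors. The libraries held 16118813 to 21928965 counts, and 23180 to 24657 genes had reads. Trex1 itself was listed at 0 counts in all 9 libraries, WT included. All exons of Trex1 lie within exons of Atrip on the same strand, so that this 0 sets no limit on its expression, and genotypes are taken from the labels alone. Levels of Atrip, named after its values were seen, stood at 16.1, 15.3 and 14.4 CPM in WT replicates 1, 2 and 3, 46.6, 48.4 and 40.2 CPM in the PBS replicates and 37.1, 37.5 and 37.1 CPM in the SN-011 replicates, with every Trex1-/- library above every WT library. Reads of 4 Y-linked genes were present in 5 libraries, at a sum of 157 to 203 CPM, and summed to at most 0.377 CPM in the other 4. They were found in WT replicate 3, in all PBS replicates and in SN-011 replicate 2, so that this split runs across the groups. SN-011 replicate 2 and WT replicate 3 also stood apart over the genes with a mean of at least 50 counts. The measure was a chi-square per gene, a mean on which single genes with high counts can weigh. The chi-square per gene between replicates was 94.9 and 83.2 for SN-011 replicate 2 against replicates 1 and 3, which differed from each other by 18.8. It was 39.8 and 39.4 for WT replicate 3 against replicates 1 and 2, which differed by 9.39, and 10.7 to 17.6 among the PBS replicates. The 9 markers of kidney segments and cells summed to 25158 to 28294 CPM in WT, 23659 to 28786 CPM with PBS and 17191 to 35646 CPM with SN-011. The spread in the last group lay mostly in Kap, a kidney gene under androgen control, with 647, 18756 and 3605 CPM in SN-011 replicates 1, 2 and 3. In whole kidney, fewer cells of a type and less RNA per cell cannot be told apart.

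The activators differed between libraries mainly within the SN-011 group. Arntl (ENSMUSG00000055116; GRCm38 chr7:113207465-113314126), which encodes BMAL1, stood at 22.4, 31.9 and 16.5 CPM in WT replicates 1, 2 and 3, 16.3, 21.0 and 24.0 CPM in the PBS replicates and 5.66, 22.7 and 11.2 CPM in the SN-011 replicates. SN-011 replicate 1 was the lowest of the 9 libraries, 4.01 times below SN-011 replicate 2, which lay within the range of WT and PBS. Npas2 (ENSMUSG00000026077; chr1:39193731-39363236), the BMAL1 partner related to CLOCK, stood at 13.4, 20.9 and 12.9 CPM in WT replicates 1, 2 and 3, 13.4, 16.6 and 18.6 CPM in the PBS replicates and 1.75, 13.9 and 4.45 CPM in the SN-011 replicates. Its lowest library was again SN-011 replicate 1, with 31 counts, and its range within the SN-011 group was 7.92-fold against 1.62-fold in WT and 1.38-fold with PBS. Clock (ENSMUSG00000029238; chr5:76209868-76304792), the usual partner of BMAL1, stood at 57.7, 57.2 and 50.6 CPM in WT replicates 1, 2 and 3, 57.6, 65.4 and 58.6 CPM in the PBS replicates and 52.7, 69.5 and 51.7 CPM in the SN-011 replicates. Its 9 values lay within 1.37-fold of each other, the narrowest range of the 10 genes.

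The 3 Period genes encode inhibitors of the BMAL1 complex, and each had its lowest value of the 9 libraries in PBS replicate 3. Per1 (ENSMUSG00000020893; chr11:69095217-69109960) stood at 143, 130.0 and 97.1 CPM in WT replicates 1, 2 and 3, 105, 92.7 and 80.2 CPM in the PBS replicates and 132, 110.2 and 101 CPM in the SN-011 replicates. Its 3 groups overlapped. Per2 (ENSMUSG00000055866; chr1:91415982-91459324) stood at 26.7, 23.0 and 22.9 CPM in WT replicates 1, 2 and 3, 22.6, 17.3 and 12.1 CPM in the PBS replicates and 71.7, 31.9 and 27.1 CPM in the SN-011 replicates. All SN-011 values lay above all WT values, which in turn lay above all PBS values, and SN-011 replicate 1 stood 2.65 times above SN-011 replicate 3. Per3 (ENSMUSG00000028957; chr4:151003652-151044665) stood at 27.5, 19.7 and 36.1 CPM in WT replicates 1, 2 and 3, 22.3, 16.3 and 16.0 CPM in the PBS replicates and 57.0, 24.3 and 33.8 CPM in the SN-011 replicates. The SN-011 values lay above all PBS values, and the WT values overlapped with both groups.

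The REV-ERB genes encode nuclear receptors that repress Arntl and Npas2, and both were highest in the SN-011 group. Nr1d1 (ENSMUSG00000020889; chr11:98767932-98775333), for REV-ERB alpha, stood at 35.0, 31.8 and 77.6 CPM in WT replicates 1, 2 and 3, 67.9, 49.4 and 46.8 CPM in the PBS replicates and 88.6, 81.3 and 95.1 CPM in the SN-011 replicates. The 3 SN-011 values lay within 1.17-fold of each other and above every other library, and WT replicate 3 stood apart from the other WT libraries by more than any pair of PBS libraries. Nr1d2 (ENSMUSG00000021775; chr14:18204054-18239127), for REV-ERB beta, stood at 83.8, 50.2 and 93.9 CPM in WT replicates 1, 2 and 3, 86.1, 72.9 and 66.7 CPM in the PBS replicates and 159, 101 and 137 CPM in the SN-011 replicates. Here too every SN-011 value lay above every WT and PBS value, although SN-011 replicate 2 exceeded the highest WT library by little.

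Dbp and Ciart, the output factor and the inhibitor CHRONO, spanned wide ranges. Dbp (ENSMUSG00000059824; chr7:45705088-45710203) stood at 25.3, 12.1 and 59.6 CPM in WT replicates 1, 2 and 3, 35.9, 15.3 and 14.8 CPM in the PBS replicates and 93.3, 13.5 and 76.2 CPM in the SN-011 replicates. The 9 values spanned 7.69-fold, with WT replicate 3 and SN-011 replicates 1 and 3 high, and SN-011 replicate 2 near the lowest values of WT and PBS. Within the SN-011 group alone the range was 6.89-fold, and within WT it was 4.91-fold. Ciart (ENSMUSG00000038550; chr3:95878503-95882251), whose promoter held the 3 E-boxes shown above, stood at 2.68, 1.53 and 3.87 CPM in WT replicates 1, 2 and 3, 2.49, 1.57 and 1.30 CPM in the PBS replicates and 8.49, 3.70 and 4.68 CPM in the SN-011 replicates. It had 21 to 150 counts per library, the fewest of the 10 in all libraries but SN-011 replicates 1 and 3, where Npas2 had fewer, and the SN-011 values lay above all PBS values and overlapped with WT by 1 library.

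**Figure D1:**
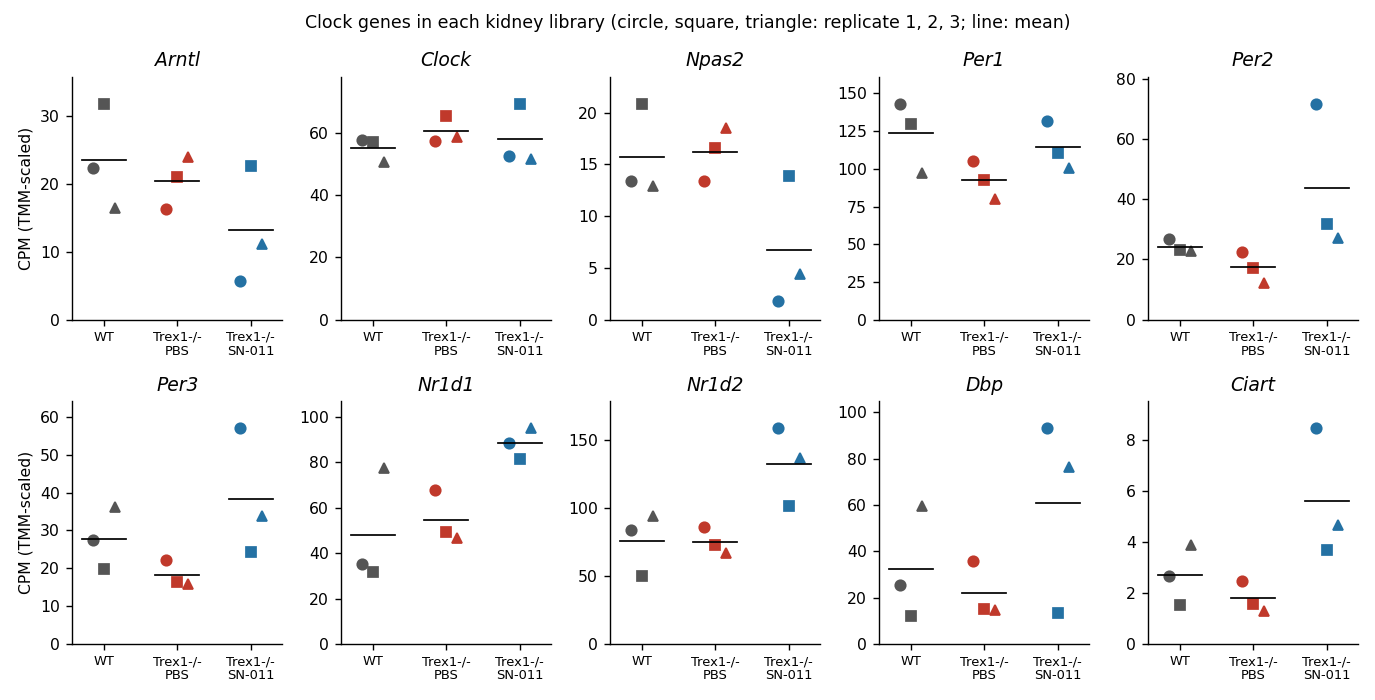
Level of each clock gene in every kidney library, in TMM-scaled CPM on a linear axis from 0, for WT, Trex1-/- with PBS and Trex1-/- with SN-011. Points are libraries (circle, square and triangle for replicates 1, 2 and 3) and lines are means of 3. Nr1d1 and Nr1d2 lie highest in all SN-011 libraries, while Dbp, Arntl and Npas2 of SN-011 replicate 2 lie apart from replicates 1 and 3.

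Per kilobase of exon, which allows genes to be compared, the highest level in WT was that of Per1, at 21.9 ± 4.22 CPM per kb (SD, n = 3). Nr1d1 with 15.6 ± 8.31, Nr1d2 with 14.0 ± 4.23 and Dbp with 10.8 ± 8.19 CPM per kb followed. Those 4 did not differ beyond their spread from their neighbours in that order. Per2 (4.13 ± 0.373), Clock (4.02 ± 0.288), Npas2 (3.28 ± 0.936), Arntl (3.13 ± 1.03) and Per3 (2.89 ± 0.854) formed a lower tier by their mean CPM per kb, again with neighbours within their spread, and Ciart was lowest at 1.19 ± 0.517 CPM per kb. With SN-011, Nr1d1 had 28.7 ± 2.25 and Nr1d2 had 24.5 ± 5.35 CPM per kb, above Dbp with 20.4 ± 14.0 and Per1 with 20.3 ± 2.81. At the other end of the order in that group stood Npas2 with 1.40 ± 1.33 and Arntl with 1.75 ± 1.15 CPM per kb.

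Averaged over each set, the activators and their targets stood on opposite sides of their means in all libraries but WT replicate 3 and SN-011 replicate 2, by little in PBS replicate 1 (0.0841 and -0.0247 on the log2 scale), and single genes did not all follow their set. Each gene's log2 CPM was centred on its mean over the 9 libraries, and a contrast was formed for each library as the mean of the 7 inhibitor and output genes minus the mean of the 3 activators. It was 2.49 in SN-011 replicate 1 and 1.21 in SN-011 replicate 3, the highest of the 9, but -0.32 in SN-011 replicate 2. In WT replicates 1, 2 and 3 it was -0.31, -1.20 and 0.29, and in the PBS replicates it was -0.11, -0.90 and -1.14. The group means were -0.41 ± 0.75 in WT, -0.72 ± 0.54 under PBS and 1.12 ± 1.41 under SN-011 (SD over 3 libraries), and the SN-011 libraries overlapped with both other groups. In 3 alternative ways of scaling and logging the counts, the value of a library shifted by at most 0.0514. SN-011 replicate 1 held the highest value of the 9 libraries for 5 genes (Per2, Per3, Nr1d2, Dbp and Ciart) and the lowest for 2 (Arntl and Npas2). PBS replicate 3 held the lowest value for 4 genes (Per1, Per2, Per3 and Ciart), and WT replicate 2 held the highest for Arntl and Npas2 and the lowest for Nr1d1, Nr1d2 and Dbp.

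**Figure D2:**
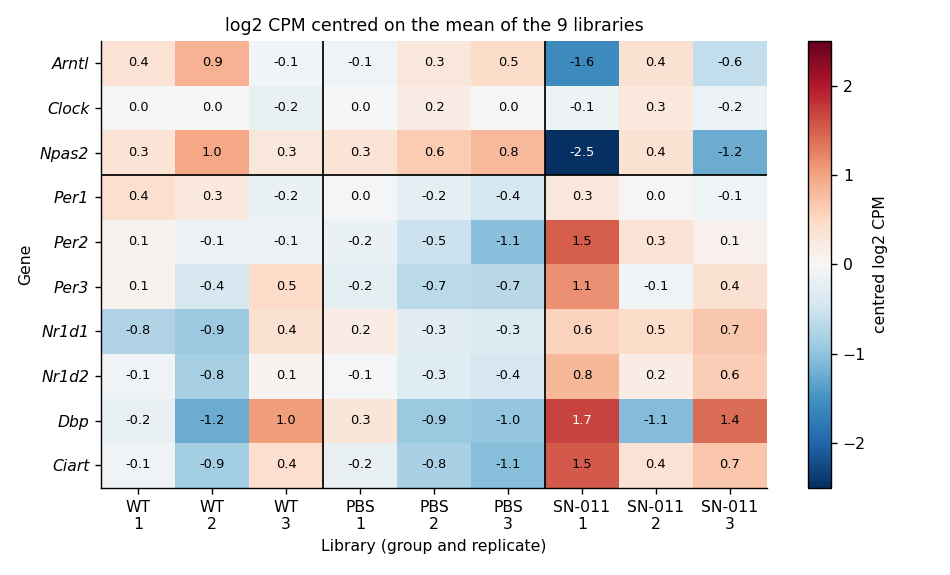
Centred log2 CPM of the 10 clock genes (vertical axis) in the 9 libraries (horizontal axis), where 0 is the mean of a gene over all libraries, red is higher and blue is lower. The upper 3 genes are the activators and the lower 7 the inhibitors and outputs. In SN-011 replicates 1 and 3 Arntl and Npas2 are blue where most of the lower genes are red, and WT replicate 2 and PBS replicates 2 and 3 show the opposite signs.

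**Figure D3:**
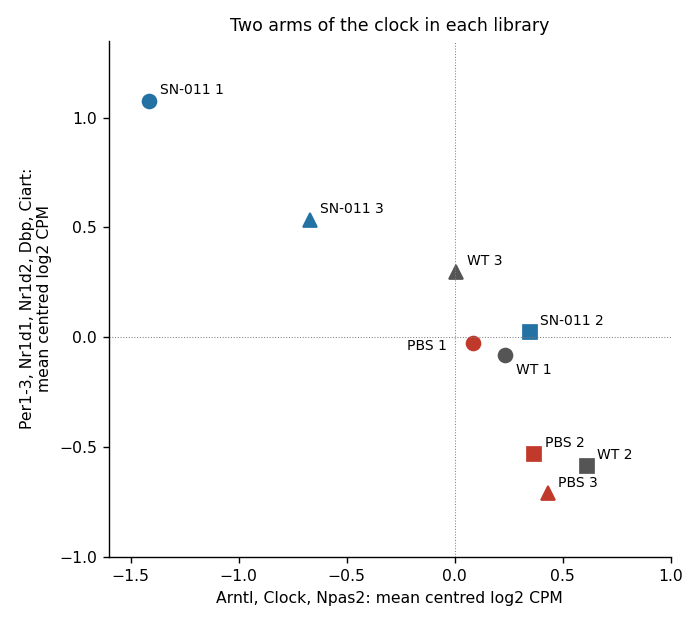
Mean centred log2 CPM of Per1, Per2, Per3, Nr1d1, Nr1d2, Dbp and Ciart (vertical axis) against that of Arntl, Clock and Npas2 (horizontal axis), with a point for each library (circle, square and triangle for replicates 1, 2 and 3). SN-011 replicates 1 and 3 lie at the upper left, apart from the other 7 libraries, and SN-011 replicate 2 lies among WT and PBS.

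The libraries without Y-linked reads were WT replicates 1 and 2 and SN-011 replicates 1 and 3. Among them the contrast was -0.31 and -1.20 in WT against 2.49 and 1.21 with SN-011. Among the 5 libraries with such reads it was 0.29 in WT, -0.11, -0.90 and -1.14 with PBS and -0.32 with SN-011. The SN-011 libraries with a high contrast are thus those without Y-linked reads. The part of this split in the clock values was not tested beyond the fits given below.

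The first comparison asked which of these genes differ in Trex1-/- kidneys given PBS from WT. None of the 10 passed edgeR's quasi-likelihood test at an adjusted p under 0.05, where 1.88% of all 16646 genes were called. At an unadjusted p under 0.05 the count was 1 of 10, against 15.2% of all genes, and DESeq2's Wald test and edgeR's exact test also called 0, where they called 4.36% and 4.11% of all genes. The 1 gene was Per1, with 92.6 ± 12.3 CPM with PBS and 123 ± 23.8 CPM in WT (log2 fold change -0.42, SE 0.159, edgeR adjusted p 0.253). The groups did not overlap for 0 genes in the higher direction and for 1, Per2, in the lower, where 13.1% and 12.3% of all genes did not overlap. For Per2 the means were 17.3 ± 5.23 and 24.2 ± 2.18 CPM (log2 fold change -0.48, SE 0.340, edgeR adjusted p 0.545). The median log2 fold change of the 10 genes was -0.31 and that of all genes was 0.0028.

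Arntl, Npas2 and Clock had log2 fold changes of -0.21, 0.04 and 0.13, with adjusted p of 0.845, 0.978 and 0.648. Those of Nr1d1 and Nr1d2 were 0.19 and -0.01 (0.807 and 0.985). Per3, Dbp and Ciart had -0.61, -0.55 and -0.58, with adjusted p of 0.377, 0.757 and 0.565. For Dbp the SE of 0.697 exceeded the difference itself. Within the libraries that carry Y-linked reads, a split chosen after seeing the data, Per3 had a value of -0.99 with an edgeR adjusted p of 0.0475, where 1.43% of all genes were called. That fit holds WT replicate 3, the highest WT value of Per3, as its 1 WT library and SN-011 replicate 2 as its 1 SN-011 library, so that its spread comes from the 3 PBS libraries alone, and WT replicate 3 is assumed to vary like them.

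The second comparison asked how these genes differ between SN-011 and PBS in Trex1-/- mice. None of the 10 passed edgeR's quasi-likelihood test, which called 0 of all genes (0%). At an unadjusted p under 0.05 there were 6 of 10 clock genes, against 11.4% of all genes. The 5 genes Per2, Per3, Nr1d1, Nr1d2 and Ciart were higher in all SN-011 libraries than in all PBS libraries, and none was lower in all, where 7.74% and 8.41% of all genes did not overlap in those directions. Each of the 7 inhibitor and output genes had a log2 fold change above 0, with a median of 1.08. The median of the 10 genes was 0.75, against -0.0053 for all genes.

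Among the inhibitors, Ciart had the widest difference, with 5.63 ± 2.53 CPM with SN-011 and 1.79 ± 0.624 CPM with PBS (log2 fold change 1.65, SE 0.418, edgeR adjusted p 0.241). Per2 had 43.6 ± 24.5 and 17.3 ± 5.23 CPM (log2 fold change 1.33, SE 0.341, edgeR adjusted p 0.241). Per3 had 38.4 ± 16.8 and 18.2 ± 3.54 CPM (log2 fold change 1.08, SE 0.307, edgeR adjusted p 0.264), while Per1 differed by 0.30 (adjusted p 0.502). The groups overlapped for Per1 and not for Per2 and Per3. For the REV-ERB genes the means were 88.3 ± 6.91 and 54.7 ± 11.5 CPM for Nr1d1 (log2 fold change 0.69, SE 0.293, edgeR adjusted p 0.412). Nr1d2 had 132 ± 28.9 and 75.2 ± 9.93 CPM (log2 fold change 0.82, SE 0.227, edgeR adjusted p 0.253). Dbp had 61.0 ± 42.0 and 22.0 ± 12.0 CPM (log2 fold change 1.47, SE 0.701, edgeR adjusted p 0.466), and its groups overlapped through SN-011 replicate 2.

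The activators had the other sign in this comparison. Npas2 had 6.70 ± 6.37 CPM with SN-011 and 16.2 ± 2.58 CPM with PBS (log2 fold change -1.27, SE 0.534, edgeR adjusted p 0.407), with an unadjusted p of 0.0375. Arntl had 13.2 ± 8.69 and 20.4 ± 3.87 CPM (log2 fold change -0.63, SE 0.411, edgeR adjusted p 0.592), and its groups overlapped, as did those of Npas2. Clock differed by -0.06 (adjusted p 0.878).

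Which genes were called depended on the test, on the filter for low counts and on the libraries. DESeq2's Wald test called 4 of the 10 genes, all higher, where it called 1.10% of all genes. They were Per2 (adjusted p 0.00592), Ciart (0.0128), Per3 (0.0245) and Nr1d2 (0.0280). edgeR's exact test called Per2 (0.0294) and Ciart (0.0337), where it called 0.763% of all genes. With every gene of at least 1 read in the quasi-likelihood fit, the same 4 genes were called as by DESeq2, where 0.411% of all genes were. Without SN-011 replicate 2, edgeR's quasi-likelihood test called 5 genes, where 3.05% of all genes were called. These were Npas2, with a log2 fold change of -2.39 (adjusted p 0.0125), Per3 with 1.32 (0.0320), Ciart with 1.87 (0.0416), Nr1d2 with 0.97 (0.0440) and Per2 with 1.51 (0.0466). Without SN-011 replicate 1 the same test called 0 of the 10 and 0% of all genes, and the log2 fold changes of Npas2, Arntl, Per2 and Per3 were -0.82, -0.27, 0.77 and 0.68 (adjusted p 0.672, 0.913, 0.487 and 0.571). Within the libraries that carry Y-linked reads, which leave SN-011 replicate 2 alone in its group and assume that it varies like the PBS libraries, 0 of 10 were called by edgeR, where 0.616% of all genes were. In that fit the log2 fold change of Dbp was -0.67 and that of Arntl was 0.17, both with the sign turned.

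**Figure D4:**
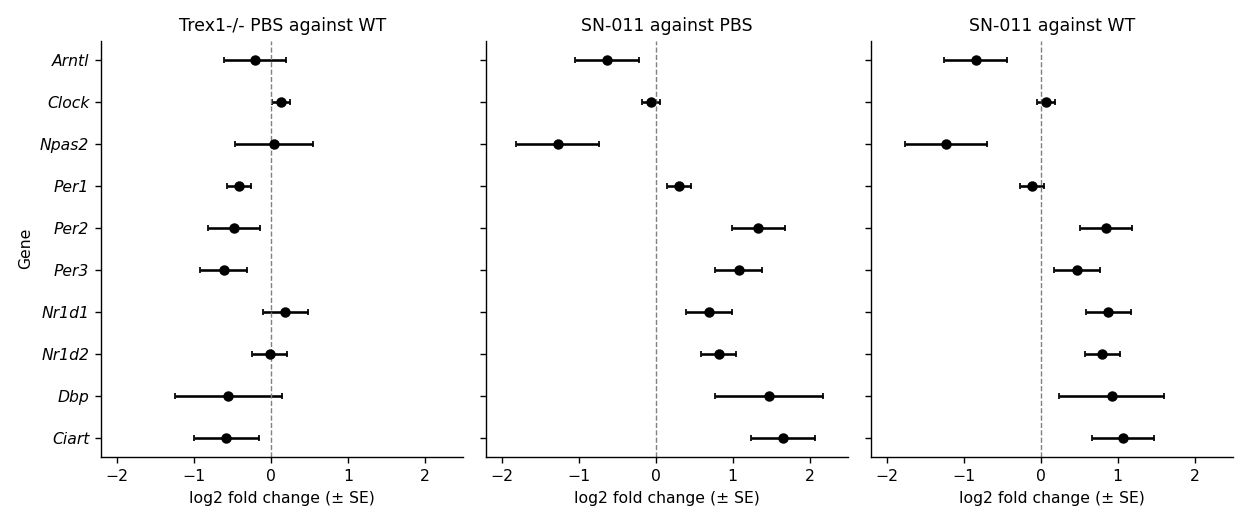
log2 fold change of each clock gene (points, with bars of ± 1 SE from edgeR's quasi-likelihood fit) for PBS against WT, SN-011 against PBS and SN-011 against WT. In the middle panel the 7 inhibitor and output genes lie above 0 and the 3 activators below, and no gene of any panel passed an adjusted p under 0.05.

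The third comparison set SN-011 against WT, and it shares its libraries with the other comparisons. None of the 10 genes passed edgeR's quasi-likelihood test, where 1.28% of all genes were called. At an unadjusted p under 0.05 there were 5 of 10, against 18.0% of all genes. Per2, Nr1d1 and Nr1d2 were higher in all SN-011 than in all WT libraries and none was lower in all, where 11.8% and 9.99% of all genes did not overlap. The smallest adjusted p was that of Nr1d2, with 132 ± 28.9 CPM with SN-011 and 76.0 ± 22.9 CPM in WT (log2 fold change 0.80, SE 0.227, edgeR adjusted p 0.111). Nr1d1 had 88.3 ± 6.91 and 48.1 ± 25.6 CPM (log2 fold change 0.88, SE 0.294, edgeR adjusted p 0.164). For Per2 the log2 fold change was 0.85 (0.221) and for Ciart 1.07 (0.199). The median over the 10 genes was 0.64, against -0.0034 for all genes.

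Of the activators, Npas2 differed from WT by -1.23 (adjusted p 0.262) and Arntl by -0.84 (0.311) on the log2 scale. Per3, Dbp, Clock and Per1 had 0.47, 0.92, 0.07 and -0.11, with adjusted p of 0.451, 0.529, 0.804 and 0.762. DESeq2's Wald test called Nr1d2 (adjusted p 0.0137) and Nr1d1 (0.0385), where it called 4.84% of all genes, and edgeR's exact test called Nr1d2 (0.0355), where it called 3.61%. With every gene of at least 1 read in the quasi-likelihood fit, Nr1d1 and Nr1d2 were called, where 1.96% of all genes were. Without SN-011 replicate 2, edgeR's quasi-likelihood test called Npas2, with a log2 fold change of -2.36 (adjusted p 0.0107), and Arntl, with -1.50 (0.0467), where 2.21% of all genes were called. Without SN-011 replicate 1 it called 0 of the 10, where 1.26% of all genes were called, with -0.78 for Npas2, -0.48 for Arntl, 0.29 for Per2 and 0.07 for Per3 (adjusted p 0.371, 0.507, 0.542 and 0.925). Without WT replicate 3 it called Nr1d1, with 1.40 (0.00546), where 1.44% of all genes were called. A split chosen after seeing the data set WT replicates 1 and 2 against SN-011 replicates 1 and 3, the libraries without Y-linked reads. It left out WT replicate 3 and SN-011 replicate 2, whose clock contrasts of 0.29 and -0.32 were the highest of WT and the lowest of SN-011. Within the 4 libraries, 5 of 10 were called, where 2.78% of all genes were. There the log2 fold change was 1.46 for Nr1d1 (edgeR adjusted p 0.000610), 2.18 for Dbp (0.00988) and 1.14 for Nr1d2 (0.0329), against -2.47 for Npas2 (0.0183) and -1.69 for Arntl (0.0276). A model with a term for Y-linked reads over all 9 libraries called none of the 10 in any comparison, where it called 1.19%, 0% and 3.94% of all genes in PBS against WT, SN-011 against PBS and SN-011 against WT. Its smallest adjusted p for these genes was 0.0506, for Nr1d1 in SN-011 against WT.

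Replicates of a group disagreed more for most clock genes than for the usual gene. The SD of log2 CPM within groups, pooled over the 3 groups, had a median of 0.486 over the 10 clock genes and of 0.199 over the 16646 genes tested. Dbp, with an SD of 1.18, lay at the 99.3rd percentile of all genes, Npas2 (0.881) at the 97.9th, Arntl (0.655) at the 94.2nd and Ciart (0.573) at the 91.4th. These 4 of 10 lay above the 90th percentile. Per2 (0.510), Per3 (0.463), Nr1d1 (0.445) and Nr1d2 (0.353) lay between the 75.9th and the 88.3rd. Per1 (0.232) and Clock (0.161) lay at the 57.6th and the 38.5th. The median SD over the clock genes was 0.455 within WT, 0.274 within PBS and 0.612 within SN-011, against 0.150, 0.150 and 0.211 over all genes. Among 15 tested genes of a list of rhythmic kidney transcripts, 0 lay above the 90th percentile, and 5 of 16 further clock components did. Of 8 glucocorticoid-responsive genes 5 did, with a median SD of 0.564. SN-011 replicate 2 and WT replicate 3, which stood apart by the chi-square per gene, enter these values, and their part in them was not tested.

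**Figure D5:**
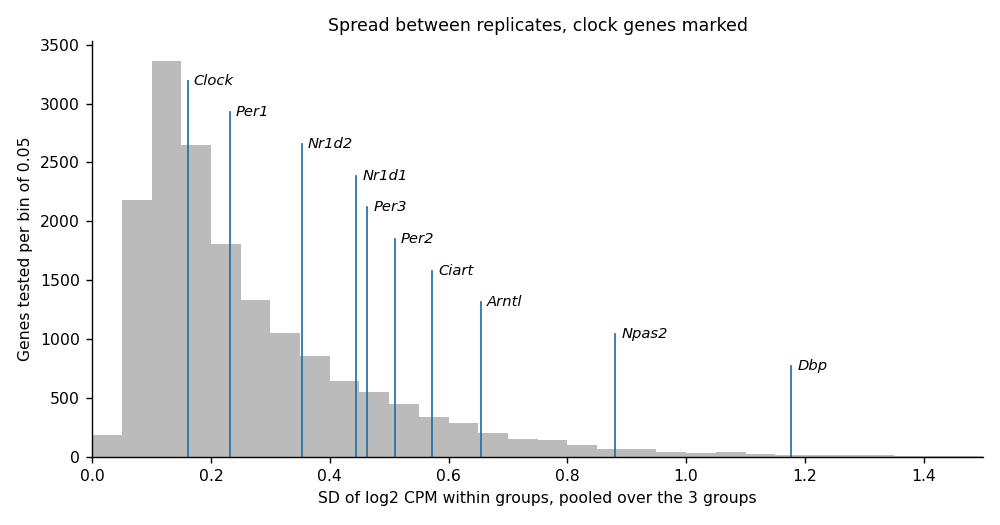
Number of genes (vertical axis, bins of 0.05) by the SD of log2 CPM within groups, pooled over WT, PBS and SN-011 (horizontal axis), for all 16646 genes tested, with the 10 clock genes marked by lines. Clock lies to the left of the median of 0.199 of all genes, and Dbp, at 1.18, lies far in the right tail.

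Of 16 further clock components, all 16 were tested and edgeR's quasi-likelihood test called 0 in each comparison, with 5, 4 and 4 at an unadjusted p under 0.05, where 15.2%, 11.4% and 18.0% of all genes were. In SN-011 against PBS, 14 of 16 had a log2 fold change above 0 (median 0.24), 6 were higher without overlap and 1 was lower, where 7.74% and 8.41% of all genes were. Bhlhe41 encodes DEC2, a repressor that competes for E-boxes. It stood at 1.84, 2.75 and 2.31 CPM in WT replicates 1, 2 and 3, 1.70, 0.875 and 0.993 CPM in the PBS replicates and 4.98, 3.01 and 3.73 CPM in the SN-011 replicates. PBS was below WT (log2 fold change -0.95, adjusted p 0.197) and SN-011 above PBS (1.71, 0.168), in both cases without overlap and without passing the test. In PBS against WT, 3 of the 16 components were higher and 4 lower without overlap, where 13.1% and 12.3% of all genes were.

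Rorb, for a nuclear receptor that activates through ROR elements, was near its limit of detection at 1.18, 0.406 and 0.578 CPM in WT replicates 1, 2 and 3, 0.122, 0.233 and 0.0621 CPM in the PBS replicates and 0.622, 0.289 and 0.771 CPM in the SN-011 replicates. Its log2 fold change in PBS against WT was -2.31 (edgeR adjusted p 0.121), and it was called in 1 of 20 alternatives, edgeR's exact test (0.0257). Nfil3, for the repressor E4BP4 that binds the same D-boxes as DBP, stood at 29.996, 33.4 and 13.5 CPM in WT replicates 1, 2 and 3, 12.7, 14.3 and 16.7 CPM in the PBS replicates and 10.6, 24.8 and 8.95 CPM in the SN-011 replicates. Its high values were WT replicates 1 and 2 and SN-011 replicate 2, and its log2 fold change in PBS against WT was -0.82 (0.358). Cry1 and Cry2, the partners of the PER proteins, had log2 fold changes of 0.55 and 0.26 in SN-011 against PBS (adjusted p 0.665 and 0.813), and their groups overlapped. The PAR bZIP relatives of Dbp had narrower ranges. Tef had 0.32 (adjusted p 0.510) and Hlf 0.01 (0.981) on the log2 scale in SN-011 against PBS.

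A list of 16 clock output and rhythmic kidney genes had 15 tested members, of which 1 was called in SN-011 against WT, where 1.28% of all genes were. In PBS against WT and in SN-011 against PBS, edgeR's quasi-likelihood test called 0, with 4 at an unadjusted p under 0.05 each, where 15.2% and 11.4% of all genes were. Wee1, for a kinase that holds cells before mitosis and a known target of the BMAL1 complex, was higher with SN-011 than in WT (log2 fold change 0.97, SE 0.173, edgeR adjusted p 0.0291), the 1 call in that comparison. It stood at 24.5, 17.2 and 18.0 CPM in WT replicates 1, 2 and 3, 22.1, 19.4 and 18.7 CPM in the PBS replicates and 47.9, 36.4 and 32.4 CPM in the SN-011 replicates, and every SN-011 value lay above every other value. The call held in 12 of 20 alternatives, whose adjusted p ran from 4.91e-05 to 0.121. It was lost in a fit of only the 6 libraries compared (0.114), without WT replicate 2 (0.121) or 3 (0.0681), without SN-011 replicate 1 (0.0529) and without any 1 of the PBS replicates (0.0544 to 0.0586). It was also lost within the libraries without Y-linked reads (0.0692). In SN-011 against PBS its log2 fold change was 0.95 (adjusted p 0.168). Alas1, Edn1 and Avpr1a, which encode the first enzyme of haem synthesis, endothelin 1 and a vasopressin receptor, had -0.55, -0.51 and -0.40 in PBS against WT, with adjusted p of 0.260, 0.332 and 0.171. Alas1 was called in 3 of 20 alternatives of that comparison (log2 fold change -0.94 to -0.41, adjusted p 0.0116 to 0.491), and Edn1 and Avpr1a in 0.

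Glucocorticoids also set Per1 and other clock genes in peripheral tissues, so a list of 8 responsive genes was read beside them, of which Tsc22d3 and Sgk1 also stand in the list of rhythmic kidney genes. In PBS against WT and in SN-011 against WT, 1 of 8 was called, where 1.88% and 1.28% of all genes were. In SN-011 against PBS edgeR's quasi-likelihood test called 0 of 8, as of all genes, with 1 at an unadjusted p under 0.05, where 11.4% of all genes were. The called gene was Zbtb16, for the zinc finger factor PLZF, which stood at 6.50, 3.29 and 2.60 CPM in WT replicates 1, 2 and 3, 42.3, 42.7 and 23.8 CPM in the PBS replicates and 60.3, 78.5 and 34.9 CPM in the SN-011 replicates. It was higher with PBS (log2 fold change 3.12, SE 0.397, edgeR adjusted p 0.00237) and with SN-011 (log2 fold change 3.80, SE 0.403, edgeR adjusted p 0.00343) than in WT, without overlap and in 20 of 20 alternatives of each comparison. Fkbp5, a chaperone of the glucocorticoid receptor, stood at 111, 74.5 and 75.2 CPM in WT replicates 1, 2 and 3, 247, 172 and 161 CPM in the PBS replicates and 192, 391 and 128 CPM in the SN-011 replicates, and in PBS against WT it did not pass (1.15, edgeR adjusted p 0.156), although it was called in 5 of 20 alternatives (adjusted p 0.00744 to 0.565). In SN-011 against WT its groups did not overlap (1.45, edgeR adjusted p 0.0847). Its highest library was SN-011 replicate 2. In PBS against WT, Mt2 and Ddit4 had 0.85 and -0.54 (edgeR adjusted p 0.497 and 0.604), and Ddit4 was called in 2 of 20 alternatives (adjusted p 0.0146 to 0.826). Tsc22d3 and Sgk1 had -0.36 and -0.39 in that comparison (edgeR adjusted p 0.555 and 0.443). The list was mixed there, with 3 of 8 genes higher without overlap and 2, Tsc22d3 and Ddit4, lower. Over all genes the shares were 13.1% and 12.3%. In SN-011 against WT, 2 of 8 were higher without overlap and 0 lower, where 11.8% and 9.99% of all genes were. The part of these genes in the clock values was not tested.

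Profiles across libraries were compared by the root mean square difference of centred log2 CPM over the 9 libraries, among 14837 genes with a mean of at least 1 CPM. Nearest to Arntl were mt-Co3 (0.222), a mitochondrial subunit of cytochrome c oxidase, Gm12454 (0.236), Apobec2 (0.286), Ppard (0.287) and Rhov (0.292), where the median over all genes was 0.722. Npas2 stood at rank 67 (0.446), being still lower than Arntl in SN-011 replicates 1 and 3, and Clock stood at rank 1633 (0.626). For mt-Co3 the values were 432, 465 and 390.3 CPM in WT, 362, 467 and 591 CPM with PBS and 120.5, 529.7 and 207 CPM with SN-011. Like Arntl it was lowest in SN-011 replicates 1 and 3. Nearest to Dbp were Gsta1 (0.382), a glutathione transferase, Ciart (0.618), Cbr3 (0.654), a carbonyl reductase, Per3 (0.655) and Wif1 (0.697), an inhibitor of Wnt ligands, where the median over all genes was 1.10. Nr1d2 stood at rank 11, Nr1d1 at 42 and Per2 at 105, while Per1 stood at 5660 (1.08), near that median. Of the 5 genes nearest to Dbp, 2 are thus other clock genes, while none of the 5 nearest to Arntl is. The points share their libraries, and the ranks are a description.

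Exons of 3 clock genes overlap those of a gene on the opposite strand, and whether the counting used strand is not given in the sources used here. Nr1d1 shares 263 of 3077 exon bases (8.55%) with Thra, for a thyroid hormone receptor. Dbp shares 539 of 2993 (18.0%) with Sphk2, a sphingosine kinase, and Arntl shares 33 of 7523 (0.439%) with Gm45355. Neither Thra nor Sphk2 passed the test in any comparison. Thra had log2 fold changes of -0.04, -0.10 and -0.14 in the 3 comparisons (edgeR adjusted p 0.888, 0.746 and 0.512). Sphk2 had -0.08, -0.17 and -0.24 (0.733, 0.511 and 0.196).

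The 5 adipocyte markers were all detected, and summed to 119, 55.0 and 178 CPM in WT replicates 1, 2 and 3. In the PBS replicates they summed to 79.8, 27.6 and 83.6 CPM, and in the SN-011 replicates to 84.7, 18.3 and 60.6 CPM. Within WT and within SN-011 the libraries stood in the same order as for Dbp, and within PBS they did not. The part of these markers in the clock values was not tested. In WT, with PBS and with SN-011, the 4 macrophage markers summed to 106 to 122, 153 to 176 and 87.5 to 143 CPM, and the 5 lymphocyte markers to 2.07 to 3.70, 4.62 to 8.07 and 1.98 to 4.92 CPM. The 5 adrenal markers summed to 5.37 to 8.10, 4.59 to 7.12 and 4.80 to 6.34 CPM, with Cyp11b2 at 0 in all libraries. Nearly all of this sum was Star, at 4.59 to 8.01 CPM. Cyp11a1, Cyp11b1 and Cyp21a1 had at most 2, 1 and 3 counts in any library. The 3 muscle markers summed to at most 0.116 CPM, with Myh4 at 0. Of these, the macrophage sum was the one in which PBS lay above both WT and SN-011 in all libraries, and its part in the clock values was not tested.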

How the data were processed

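PolyA-selected RNA of mouse kidney was sequenced in paired reads on Illumina instruments. Per the study's methods and the submitters' processing notes, the authors trimmed reads with Trimmomatic, aligned them with HISAT2 to mm10 and deposited raw counts of uniquely mapped pairs per Ensembl gene from featureCounts. Versions, annotation and strand setting are not given in the sources used here. The 9 libraries, 3 per group by their labels, were not pooled, and 0 columns were left unused. Of 54532 identifiers, 54495 matched a symbol and 37 did not. GENCODE vM21 on GRCm38 gave positions.

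In R 4.3.3, edgeR 4.0.16 kept genes by filterByExpr (minimum 10 counts, 15 in total), scaled libraries by TMM and fitted all 9 in 1 quasi-likelihood model with a mean per group. SE was derived from the F statistic, and genes were called at a Benjamini-Hochberg adjusted p under 0.05 over all 16646. Log2 CPM used a prior count of 2. Limits for a count of 0 are 3 counts per library and cover counting error only.

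The 10 clock genes, the lists of related genes and the alternatives were chosen with earlier results of these data known. Named beside the 10 were, from each of 3 lists (further clock components, rhythmic kidney genes, glucocorticoid-responsive genes), those called in any comparison and the next 3 by size of change in PBS against WT. Also named were the 5 profiles nearest to Arntl and the 5 nearest to Dbp, and genes with overlapping exons. Cry1, Cry2, Tef and Hlf were named after their values were seen, as partners of the PER proteins and relatives of Dbp, Trex1 as the targeted gene and Atrip as the gene that covers it. On simulated counts for PBS against WT over 16368 genes, edgeR recovered 65 of 100 genes changed by 1 on the log2 scale and 94 of 100 changed by 2, and called 12 others. Alternatives were run with limma 3.58.1 (voom) and DESeq2 1.42.0, with other filters and factors, without each library and with a replicate block. Subsets by Y-linked reads were added after seeing the data.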

Additional observations from a re-analysis of the deposited data

How the results depend on the processing

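The values of each comparison were recomputed under 20 alternatives. For PBS against WT, SN-011 against PBS and SN-011 against WT, the genes called over all genes were 313, 0 and 213. They were 707, 127 and 607 with all genes of at least 1 read, 726, 183 and 806 by DESeq2's Wald test and 684, 127 and 601 by edgeR's exact test. A fit of only the 6 libraries compared gave 751 for PBS against WT and 43 for SN-011 against WT, and a term for Y-linked reads gave 198 and 656. Only the libraries with Y-linked reads gave 107 for SN-011 against PBS, and only those without gave 461 for SN-011 against WT. Leaving out each library in turn gave 153 to 774, 0 to 519 and 38 to 376, with 774, 519 and 376 without SN-011 replicate 2. Of the 10 clock genes, 0 were called in each comparison. In PBS against WT 1 was called only among libraries with Y-linked reads. In SN-011 against PBS 4 were called with all genes of at least 1 read, 4 by DESeq2's Wald test, 2 by edgeR's exact test and 0 to 5 without each library in turn. In SN-011 against WT those numbers were 2, 2, 1 and 0 to 2, and 5 among libraries without Y-linked reads. Deviations of libraries with the same replicate number had r from -0.29 to 0.24 over 9 pairs. Over 18 pairs of different numbers r ran from -0.37 to 0.38. Between PBS and SN-011, r was 0.20, 0.24 and 0.098 for replicates 1, 2 and 3, above all pairs of different numbers there (-0.22 to 0.091). Same-number pairs with WT went both ways. The labels define no pairing, so a block for these numbers pairs nothing that they define. The replicate block called 312, 0 and 231 genes and 0 clock genes. Some log2 fold changes turned direction. Leaving out each library in turn, Arntl in PBS against WT ran from -0.41 to 0.0704 and was above 0 without WT replicate 2. There Npas2 ran from -0.0848 to 0.30 (below 0 without WT replicate 1, WT replicate 3 or PBS replicate 3), Nr1d1 from -0.0397 to 0.71 (below 0 without WT replicate 1, WT replicate 2 or PBS replicate 1), Nr1d2 from -0.24 to 0.17 (above 0 without WT replicate 1 or 3 or PBS replicate 2 or 3) and Dbp from -1.10 to 0.23 (above 0 without WT replicate 3). Clock ran from -0.22 to 0.0196 in SN-011 against PBS, above 0 without PBS replicate 2, SN-011 replicate 1 or SN-011 replicate 3. In SN-011 against WT it ran from -0.0855 to 0.15, below 0 without SN-011 replicate 2, and Per1 from -0.26 to 0.0087, above 0 without WT replicate 1. With the Y-linked term, Npas2 became -0.62 and Nr1d1 -0.10 in PBS against WT, and Clock 0.0135 in SN-011 against PBS. Nr1d2 became 0.0285 with limma-voom and 0.0288 with the replicate block in PBS against WT. Among libraries with Y-linked reads, Arntl became 0.31, Nr1d1 -0.51 and Nfil3 0.11 in PBS against WT, and Arntl 0.17, Clock 0.22 and Dbp -0.67 in SN-011 against PBS. Among those without, Clock became -0.14 in SN-011 against WT. For these changes the cause was not tested. The lowest counts of a library were 21 for Ciart and 31 for Npas2, while the largest SE of the 10 genes was that of Dbp, at 234 to 1648 counts.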
